A study of Gallus gallus with 2 samples.

Results

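The genes described here encode the enzymes that write and erase histone marks, the ATP-driven machines that move nucleosomes, the chaperones that carry histones, and the enzymes of DNA methylation. Members were taken from a list of 60 gene symbols, and 54 of them matched the platform's gene symbols, of 13009 genes named on the array. The other 6 symbols (CHD8, KAT8, NSD2, NSD3, SETDB1 and SUPT16H) matched no probe set and were not analysed here. The 54 genes were covered by 156 probe sets, from 1 to 8 per gene, and each gene was represented by its brightest probe set, the one with the highest mean log2 signal over both arrays.

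RNA came from DT40, an established chicken B cell line derived from the bursa of Fabricius, as 1 wild-type clone and 1 clone deficient for PTIP, the protein encoded by PAXIP1. The labels write the mutant clone as PTIP-/-/- and list no other allele or treatment in either clone, and both were grown at the same temperature. Each clone was measured on 1 Affymetrix chicken array, so no culture, extraction or hybridisation was replicated and no test between genotypes exists. Every difference below is a difference between these 2 arrays. It covers neither the spread between cultures nor that between clones, and in bulk RNA fewer cells of a type and less RNA per cell cannot be told apart.

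PTIP is a BRCT-domain protein that takes part in the DNA damage response and is a subunit of a methyltransferase complex that marks lysine 4 of histone H3. Methylation of this lysine is associated with active promoters and enhancers, whereas methylation of lysine 9 is associated with silent chromatin. Histone acetyltransferases and remodelling complexes open chromatin to transcription factors, and histone chaperones assemble nucleosomes behind the replication fork. In B cells these activities accompany class switching, gene conversion at the immunoglobulin loci and the change from B cell to plasma cell.

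Signals are the linear intensities as deposited. Both arrays had the same mean, 499.9, once values outside percentiles 2 to 98 were set aside, so both had been scaled to one target, and a difference in RNA per cell is not visible. PAXIP1 itself had 1 measured probe set, with signals of 1045 in the wild-type and 593 in the mutant clone; where this probe set lies relative to the disrupted exons is not known here. All 9 B cell markers on the array reached the signal floor of 31.0 in both arrays. Over the reporter level of 131.5 were 8 in the wild-type and 7 in the mutant clone. The signals of the 9 summed to 31749 and 14686. Lower were 6 of them, with the widest gaps in CD79B (9437 and 3732), POU2AF1 (8186 and 1943) and CD72 (2951 and 87.4). The other 3 were higher: PAX5 (96.7 and 122), IKZF3 (1465 and 1814) and TNFRSF13B (402 and 643). The 9 T cell markers summed to 9460 and 17164, mostly from CD3D. CD8A had signals of 78.2 and 563 and CD247 of 403 and 551, whereas CD4, LCK and CD28 stayed under that floor. ZAP70 (53.3 and 45.3), CD3E (46.5 and 45.5) and GATA3 (37.8 and 25.2) were dim and lower in the mutant clone. The 8 fibroblast and epithelial markers summed to 366 and 1478, with LUM at 6.18 and 1019 and COL1A1 at 65.7 and 206. PDGFRA (56.0 and 32.1), CDH1 (36.4 and 2.39) and COL3A1 (41.3 and 40.2) were dim and lower. Of those measured in both arrays, 3 of 5 T cell markers and 2 of 4 fibroblast and epithelial markers were higher. The 7 macrophage and granulocyte markers summed to 482 and 330, with CYBB at 225 and 38.1 and MMP9 at 79.3 and 18.2. CSF1R (76.4 and 87.1), CSF3R (11.2 and 17.7), LYZ (29.8 and 36.6), MRC1 (8.35 and 12.7) and CTSK (51.6 and 120) were dim and higher. Among the 3 measured in both arrays, 2 were higher. The 5 erythroid markers summed to 8824 and 12136, nearly all from TFRC, which dividing cells of other types also express. The part of all these markers in the differences below was not tested. Hybridisation controls had a median log2 ratio of 0.30, with 27 of 27 higher in the PTIP deficient array, which is the size of many differences reported here.

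A probe set was called measured where its signal reached 31.0, percentile 40 of all signals, and a log2 ratio (PTIP deficient minus wild-type) was formed where both signals did. Of the 54 genes, 50 were measured in both arrays, KDM2A and KAT2B in PTIP deficient cells only, CREBBP in wild-type cells only, and SMARCB1 in neither. Reporter and marker sequences on the array had signals of up to 131.5, leaving out 1 bright value; a fold difference with 1 signal under this level is therefore a lower bound against it, and none is given where both signals lie under it. Of the 50 genes, 44 had both signals over 131.5.

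**Figure D1:**
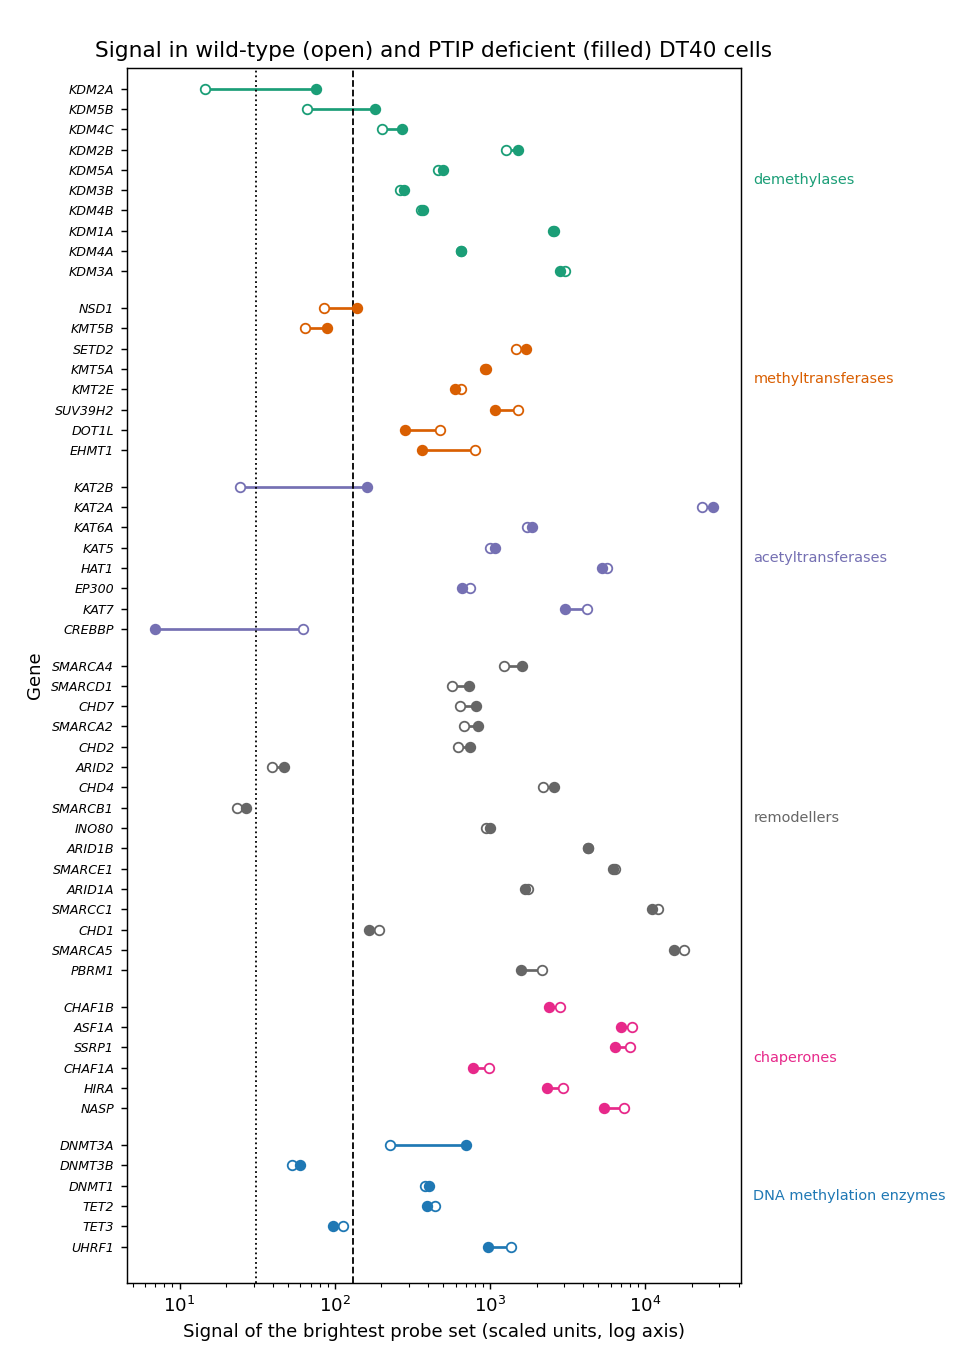
Signal of the brightest probe set of each of 54 chromatin genes (log axis, scaled units) in wild-type (open circles) and PTIP deficient cells (filled circles), by class. The dotted line is the floor of 31.0 and the dashed line the highest reporter signal of 131.5; most pairs nearly coincide, and DNMT3A, EHMT1 and DOT1L have the widest gaps among genes with both signals over 131.5.

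Most of the chromatin genes had nearly the same signal in both clones. Of the 50 with a ratio, 2 (4.0%) were at least 2-fold higher in PTIP deficient cells, DNMT3A and KDM5B (the latter with its wild-type signal under 131.5), and 1 (2.0%) was at least 2-fold lower, EHMT1. The same bar was passed upwards by 5.03% and downwards by 4.46% of all 9165 genes with 2 measured signals, so the share of chromatin genes past 2-fold was not above the background. With a bar of 1.5-fold, 3 genes (6.0%) were higher, with NSD1 added, and 2 (4.0%) lower, with DOT1L added, against 13.1% and 11.5% of all genes. NSD1 too had its wild-type signal under 131.5, and the measured probe sets of NSD1 and of DOT1L had both signs. The other 45 of 50 (90.0%) lay within 1.5-fold, as did 75.5% of all genes. Among genes with both signals over 131.5 the shares within 1.5-fold were 93.2% of 44 chromatin genes and 82.0% of 6658 genes. In this brighter range DNMT3A was the 1 chromatin gene past 2-fold upwards and EHMT1 the 1 past it downwards, where 3.05% and 2.79% of all genes were; at 1.5-fold they were 1 and 2 of 44, against 9.52% and 8.44%. The 50 genes had a median log2 ratio of 0.01, beside 0.03 over all genes, and 26 were above 0 and 24 below, where 52.6% of all genes were above and 47.4% below.

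**Figure D2:**
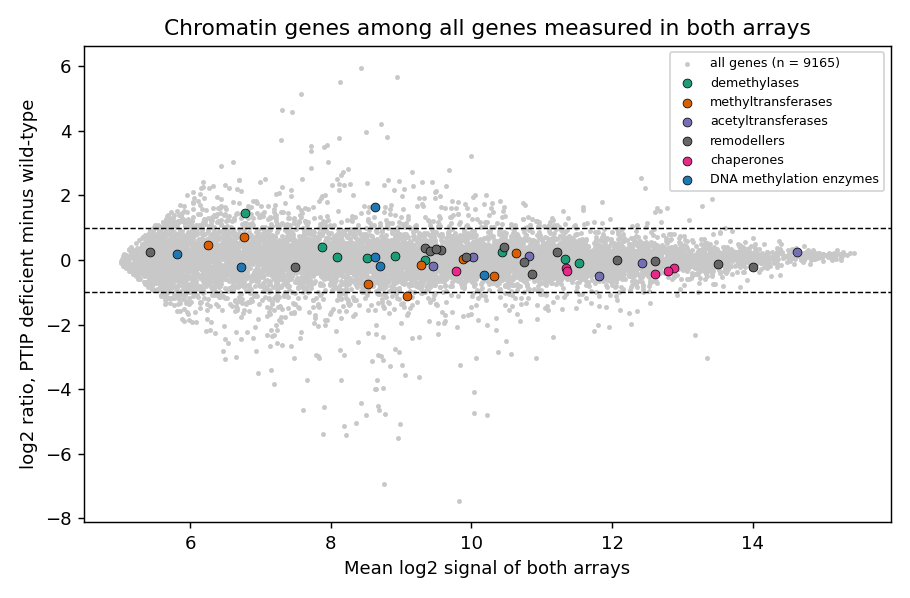
Log2 ratio against mean log2 signal for all 9165 genes measured in both arrays (grey) and for 50 chromatin genes coloured by class. Dashed lines mark 2-fold; the chromatin genes spread over the whole signal range and 47 of them lie between the lines.

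The error of a single value can be gauged only from probe sets of the same gene. The difference in log2 ratio between the 2 brightest measured probe sets had an SD of 0.50 across 4284 genes (0.36 per probe set). Across the 34 chromatin genes with 2 or more, the SD was 0.40 (0.28 per probe set). In 29 of these 34 genes (85.3%) both probe sets had the same sign, beside 73.3% of all such genes. All measured probe sets of a gene shared one sign in 23 of the 34. A further 16 genes rested on 1 measured probe set.

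The enzymes of DNA methylation held the largest ratio among the 50 genes measured in both arrays. DNMT3A, a de novo DNA methyltransferase, had signals of 225 in the wild-type and 699 in the mutant clone, a 3.10-fold higher signal with a log2 ratio of 1.63. Its second probe set gave 154 and 417, a 2.71-fold higher signal with a log2 ratio of 1.44, so that both probe sets were past 2-fold in the same direction. The difference ranked 127 from the top among 9165 genes. DNMT3B, the other de novo enzyme, was dim, at 52.8 and 60.1, and its measured probe sets had opposite signs.

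The maintenance side of DNA methylation did not follow DNMT3A. DNMT1, which copies methylation to the new strand after replication, had signals of 381 and 407 on its only probe set, a log2 ratio of 0.09. UHRF1, which brings DNMT1 to hemimethylated DNA, had signals of 1362 and 979, a 1.39-fold lower signal (log2 ratio -0.48). Its second probe set gave a log2 ratio of -0.60, and the 2 dimmest, with all signals under 131.5, gave -0.66 and 0.10. Of the TET enzymes, which oxidise methylcytosine, TET2 had signals of 442 and 391 with all 3 measured probe sets below 0, while TET3 was dim (113 and 97.9). The 6 genes had a median log2 ratio of -0.04 and ran from -0.48 to 1.63.

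Histone methyltransferases had log2 ratios from -1.12 to 0.71, with 4 genes above 0 and 4 below. Their SD was 0.62 over 8 genes, beside 0.69 over all genes. The upper end was NSD1, whose measured probe sets had both signs. KMT5B came next at 0.47, with both signals under the reporter level. Among the methyltransferases with both signals over that level, SETD2 was the highest, at 0.21. EHMT1, which with its partner methylates lysine 9 of histone H3, had signals of 797 in the wild-type and 366 in the mutant clone, a 2.18-fold lower signal or 45.9% of wild-type. Its second probe set gave 787 and 316, or 40.1%, and the third was under the floor in both arrays. Both measured probe sets are of the _s_at kind, in which probes can match more than one transcript, and no probe set of another kind was measured for it. EHMT1 ranked 332 from the bottom among all measured genes.

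DOT1L, which methylates lysine 79 of histone H3, had signals of 476 and 284, a 1.67-fold lower signal. Its 7 measured probe sets disagreed, from -0.74 to 0.72, with 5 below 0, and the brightest gave the lowest ratio. NSD1, a methyltransferase of lysine 36 of histone H3, had signals of 84.7 and 139 and was at least 1.06-fold higher. Its 5 measured probe sets ranged from -1.05 to 1.31, so its direction is not settled. SUV39H2, another lysine 9 methyltransferase, had signals of 1523 and 1071, a 1.42-fold lower signal, with its second probe set at a log2 ratio of -0.31.

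The remaining methyltransferases differed little by their brightest probe set, with wider differences in some other probe sets. SETD2, which trimethylates lysine 36, had signals of 1478 and 1710. KMT5A, which monomethylates lysine 20 of histone H4 and is regulated through the cell cycle, had 931 and 949. Log2 ratios of the measured probe sets ran from -0.04 to 0.60 for SETD2 and from 0.03 to 0.46 for KMT5A. KMT2E, a SET-domain protein of the family of lysine 4 methyltransferases, had 654 and 591 with its brightest probe set and 231 and 124 with the second. KMT5B, which adds further methyl groups to lysine 20, was dim, at 64.7 and 89.6. Its other probe sets were measured in wild-type cells only, at 31.1 and 11.4 and at 37.3 and 4.74, or in neither array. The class median was -0.06. The genes that the array lists as WHSC1 and WHSC1L1, older symbols of NSD2 and NSD3, are outside the 54 genes. They had signals of 164 and 144, and of 265 and 324, with measured probe sets of both signs in each.

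**Figure D3:**
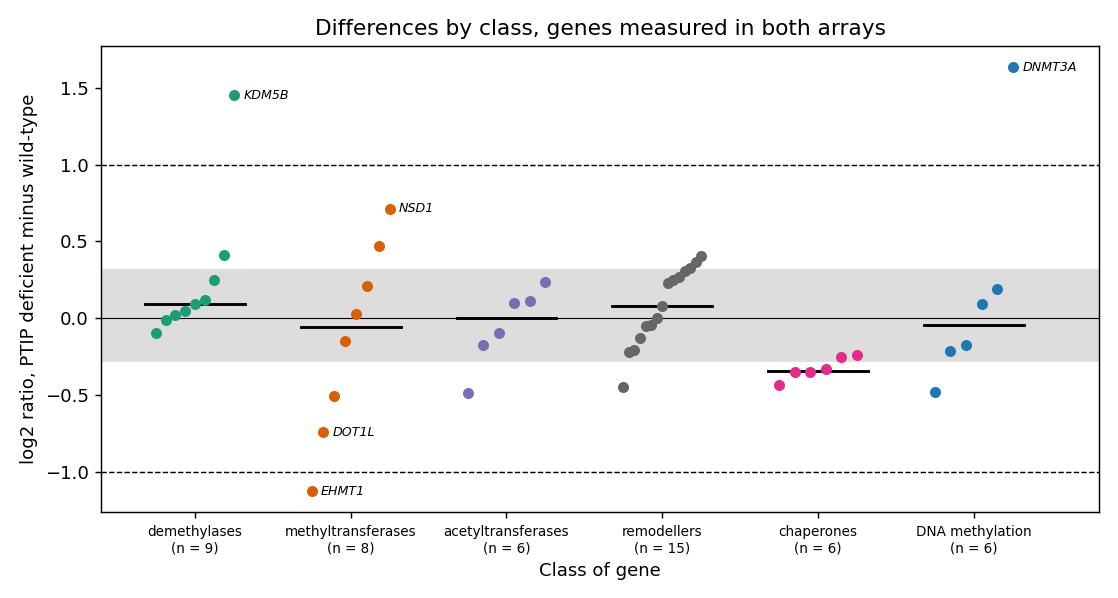
Log2 ratios (PTIP deficient minus wild-type) of 50 chromatin genes by class; each point is a gene and each bar a class median. The grey band holds the middle 50% of all 9165 measured genes and dashed lines mark 2-fold; the 6 chaperones lie together below 0, while the methyltransferases spread from -1.12 to 0.71.

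Histone chaperones had lower signals in PTIP deficient cells in all 6 measured genes, by a small amount. Their log2 ratios lay between -0.43 and -0.24 with a median of -0.34 (0.79-fold), where 47.4% of all genes were below 0 and the median of all genes was 0.03. All 9 of their measured probe sets were below 0, from -0.74 to -0.24. By the brightest probe set, 5 of the 6 differences were smaller than the SD of 0.36 per probe set over all genes, and that of NASP was larger. Against the 0.28 per probe set of the chromatin genes, ASF1A (-0.25) and CHAF1B (-0.24) were smaller and the others larger. Neither SD covers the spread between arrays, cultures or clones. The median stayed between -0.36 and -0.33 under the alternatives that kept all 6 genes, but most of these could change it little or not at all. The 3 floors kept every ratio as it was, and median scaling shifts all ratios alike. With the mean of all measured probe sets, only NASP and HIRA, which had further measured probe sets, could change. Quantile normalization and loess, which could alter each ratio separately, both gave a median of -0.35. The second brightest probe set left 2 of the 6 genes and the removal of _s_at and _x_at probe sets left 3.

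NASP, a chaperone of the soluble histone H3 and H4 pool, had the widest gap, with signals of 7296 in the wild-type and 5406 in the mutant clone, a 1.35-fold lower signal. Its other 2 probe sets gave 3294 and 2252, and 1098 and 658, with log2 ratios of -0.55 and -0.74. ASF1A, which hands histones on to both assembly pathways, had signals of 8258 and 6939. The chromatin assembly factor subunits CHAF1A and CHAF1B, which deposit histones on replicated DNA, had signals of 990 and 776, and of 2830 and 2403. HIRA, which deposits histone H3.3 outside replication, had signals of 2976 and 2330, and its second probe set gave 1253 and 1005. SSRP1, a subunit of the FACT complex that opens nucleosomes for polymerases, had signals of 8010 and 6359. ASF1A, CHAF1A, CHAF1B and SSRP1 rested on 1 measured probe set each.

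Genes linked to DNA replication in this set (the chaperones other than HIRA, with HAT1, DNMT1, UHRF1 and KMT5A) had a median log2 ratio of -0.25 over 9 genes, 7 of them below 0, where 47.4% of all genes were. The 41 other genes had a median of 0.08, with 17 below 0. The chaperones in the group are those given above, all below 0, so the group largely repeats their result. HIRA, outside the group, was also below 0 (-0.35), as was KAT7 (-0.49), known from origin licensing. The grouping was made with earlier results of these data known. In the rest of the group, UHRF1 and HAT1 were below 0, and KMT5A (0.03) and DNMT1 (0.09) above. HAT1, which acetylates new histone H4 before its deposition, had signals of 5662 and 5305, a log2 ratio of -0.09. The replication-linked genes thus spread from -0.48 for UHRF1 to 0.09 for DNMT1, and none was 1.5-fold apart.

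Demethylases of histone lysines were close to equal, apart from KDM5B. Of 9 measured genes, 7 were above 0, where 52.6% of all genes were, and the median was 0.09. KDM5B, which removes methyl groups from lysine 4 of histone H3, had signals of 66.5 in the wild-type and 182 in the mutant clone and was at least 1.38-fold higher against the highest reporter signal. A second probe set gave 39.3 and 211, at least 1.61-fold higher. The third gave 104 and 110, a log2 ratio of 0.09, with both signals under 131.5. The 2 probe sets that differed are of the _s_at kind and the third is not. KDM5A, the paralogue of KDM5B, had signals of 460 and 500, with its second probe set at a log2 ratio of -0.32. KDM1A, the flavin-dependent demethylase of the same lysine, had 2554 and 2589, with all 3 probe sets between 0.02 and 0.26.

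Of the demethylases of lysines 9 and 36, the 6 measured in both arrays were within 1.5-fold, and KDM2A could not be assessed. KDM3A and KDM3B, which act on lysine 9, had signals of 3045 and 2847, and of 263 and 280. KDM4A, KDM4B and KDM4C, which act on both lysines, had log2 ratios of -0.01, 0.05 and 0.41, the last from signals of 202 and 270. The other probe set of KDM4C was measured in wild-type cells only (42.6 and 28.2). The measured probe sets of KDM4B ran from -0.43 to 0.17. KDM2B, a lysine 36 demethylase that also belongs to a Polycomb complex, had signals of 1270 and 1509, with all 3 measured probe sets between 0.23 and 0.38. KDM2A was dim on its only probe set, at 14.6 in the wild-type and 76.2 in the mutant clone; both lie under 131.5, so no fold is given.

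Among the acetyltransferases, KAT2B and KAT2A gave different pictures. KAT2B, a coactivator acetyltransferase also known as PCAF, was under the floor in wild-type cells with all 3 of its probe sets, at 24.4, 12.8 and 4.39. The same probe sets had signals of 163, 153 and 202 in PTIP deficient cells, each over 131.5, which gives bounds of at least 1.24-fold, 1.16-fold and 1.53-fold higher. Over the 13009 genes on the array, 1.51% were measured in PTIP deficient cells only with a signal at least 2-fold over the floor. Of the 54 genes, 2 were, KAT2B and KDM2A. The reverse held for 1.34% of all genes and for 1 of the 54, CREBBP. The signals of KDM2A and CREBBP lay under 131.5. KAT2A, the paralogue of KAT2B also known as GCN5, had signals of 23256 and 27386, a 1.18-fold higher signal, and its second measured probe set gave 1752 and 1997.

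KAT7, an acetyltransferase of the MYST family known from origin licensing, had signals of 4247 and 3034, a 1.40-fold lower signal on its only probe set. The MYST enzymes KAT5 and KAT6A had signals of 1001 and 1074, and of 1732 and 1869. KAT5 rested on 1 probe set, and the 4 measured for KAT6A had log2 ratios of both signs, from -0.29 to 0.26. EP300, a broad transcriptional coactivator, had 747 and 661, with its measured probe sets on both sides of 0. Its paralogue CREBBP was dim on its only probe set, at 62.4 in the wild-type and 6.92 in the mutant clone, and no fold is given. The class median was 0.00 over 6 genes measured in both arrays.

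**Figure D4:**
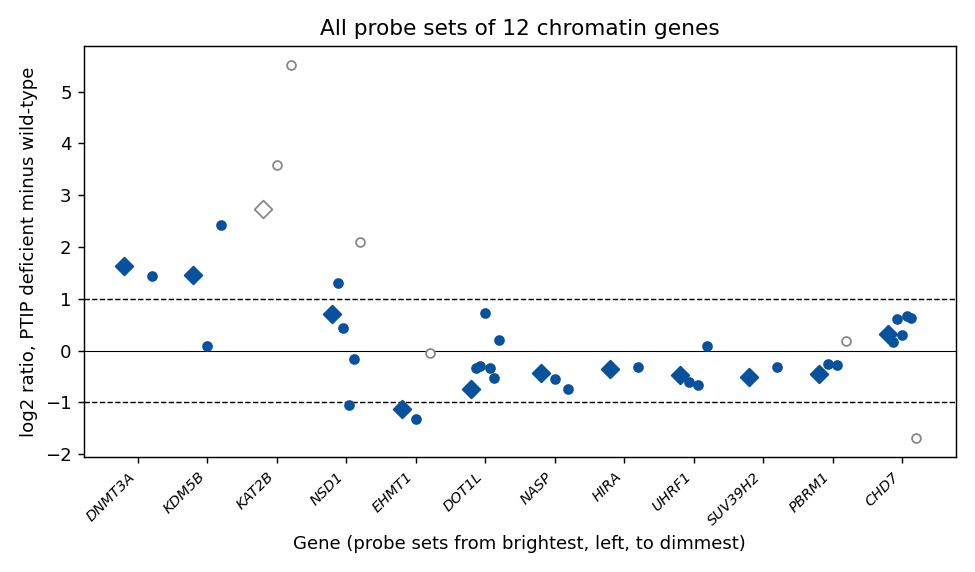
Log2 ratios of all probe sets of 12 chromatin genes, ordered by brightness within each gene; diamonds are the brightest, and open symbols had a signal under the floor of 31.0 in at least 1 array. Dashed lines mark 2-fold; the measured probe sets of DNMT3A, EHMT1, NASP and HIRA lie close together and those of KDM5B, NSD1 and DOT1L do not.

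By their brightest probe set, chromatin remodellers stayed within 1.5-fold in all 15 measured genes, as did 75.5% of all genes. Their log2 ratios ran from -0.44 to 0.40 with a median of 0.08. Dimmer measured probe sets passed 1.5-fold in CHD7 (log2 ratio up to 0.66) and SMARCC1 (down to -1.13). The catalytic subunits of the SWI/SNF complexes, SMARCA4 and SMARCA2, had signals of 1224 and 1617, and of 678 and 841, or 1.32-fold and 1.24-fold higher. SMARCD1, an accessory subunit, was 1.29-fold higher (573 and 737). SMARCA4, SMARCA2 and SMARCD1 rested on 1 measured probe set each. Their log2 ratios of 0.40, 0.31 and 0.36 were near the SD of 0.36 per probe set over all genes. The core subunits SMARCC1 and SMARCE1 had signals of 12137 and 11126, and of 6353 and 6170; a much dimmer probe set of SMARCC1 gave 138 and 62.9. The DNA-binding subunits ARID1A and ARID1B had log2 ratios of -0.05 and 0.00. PBRM1, the bromodomain subunit of the PBAF form of the complex, was 1.36-fold lower (2162 and 1589). Log2 ratios of its 3 measured probe sets ran from -0.44 to -0.26. ARID2, of the same form, had signals of only 39.4 and 46.9, and SMARCB1 only 23.3 and 26.8.

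Of the 4 CHD remodellers measured, 3 were higher by their brightest probe set, where 52.6% of all genes were above 0. These 3 had log2 ratios from 0.23 to 0.33, each under the SD of 0.36 per probe set over all genes. CHD7, which binds methylated lysine 4 of histone H3, had signals of 644 and 808, with all 6 measured probe sets above 0, from 0.16 to 0.66. CHD4, the motor of the NuRD repressor complex, had 2198 and 2580 and 4 of 4 probe sets between 0.23 and 0.35. CHD2 had 621 and 746, with probe sets on both sides of 0, and CHD1, another reader of methylated lysine 4, had 193 and 167, with both probe sets below 0. INO80, which names the remodelling complex it drives, had 943 and 998, with all 6 probe sets measured in both arrays above 0. Its other probe sets were dim and measured in wild-type cells only (35.2 and 24.3, and 31.5 and 6.22). SMARCA5, the ISWI motor, was 1.17-fold lower (17791 and 15267).

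Paralogues differed from each other in only a few pairs. Of the pairs with both genes measured, DNMT3A and DNMT3B were 1.44 apart in log2 ratio and KDM5A and KDM5B 1.33, each pair holding a gene with a signal under 131.5. SMARCA2 and SMARCA4 were 0.09 apart, ARID1A and ARID1B 0.05, CHAF1A and CHAF1B 0.12, TET2 and TET3 0.04, and KDM3A and KDM3B 0.19. CHD1 and CHD2 were 0.47 apart and KDM4A and KDM4C 0.42. These gaps are at or under the SD of 0.50 between 2 probe sets of one gene.

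The 54 genes lie on 24 chromosomes of the GRCg7b annotation. The genes with the widest gaps were on chromosomes whose genes as a whole were close to equal. DNMT3A lies on chromosome 3 (median log2 ratio -0.03 over 727 measured genes), EHMT1 on chromosome 17 (0.04 over 190), KDM5B on chromosome 26 (0.08 over 158) and KAT2B on chromosome 2 (0.01 over 764). DNMT3B lies on chromosome 20, where the median was 0.37 over 215 genes, and SMARCA4 on chromosome 38, where it was 0.25 over 19. Chromosome Z had a median of -0.16 over 406 genes, and of its members here KDM4C (0.41) and SMARCA2 (0.31) were above it and CHD1 was at -0.21. The chaperones are on 6 different chromosomes, none with a median under -0.03.

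Chromatin genes outside the 54 gave no difference of 2-fold by their brightest probe set, where both arrays were measured. Dimmer probe sets passed 2-fold in ANP32E (log2 ratio down to -1.31), ATRX (down to -1.06) and BRPF3 (up to 1.06). SMARCD3 was measured in wild-type cells only (60.9 and 23.3) and PRMT1 in PTIP deficient cells only (26.9 and 31.8). Of 108 further genes listed, 85 were on the array and 82 were measured in both arrays, with 41 above 0 and 41 below, a median of 0.00 and 0 at least 2-fold apart in either direction. At 2-fold, 5.03% of all genes were higher and 4.46% lower. At 1.5-fold, 10 of the 82 (12.2%) were higher and 4 (4.88%) lower, against 13.1% and 11.5% of all genes. The 14 measured histone deacetylases had a median of -0.01, and 4 arginine methyltransferases one of 0.00. Chaperones outside the 54, 14 in number, had a median of 0.00 with 7 below 0, beside 6 of 6 for the chaperones above. The 31 other remodeller and coactivator subunits had a median of -0.09, and 19 bromodomain proteins and readers of methylated lysine one of 0.21, with 12 above 0. The 4 lower genes, named after their values were seen, were ACTR8, a subunit of the INO80 complex (632 and 328), the SWI/SNF subunit SS18 (5318 and 3133), the remodeller SMARCAD1 (1720 and 1041) and MCM2, a helicase subunit that also binds histones (10498 and 6954). A second probe set of SS18 gave a log2 ratio of -0.30 against -0.76 for the brightest, and the other 3 rested on 1 measured probe set each. Among the 10 higher genes, chosen in the same way, ING5, a reader of methylated lysine 4, had the highest log2 ratio, 0.88 (1149 and 2117). HDAC4 was next (0.84), with both signals under 131.5. BRPF3 followed at 0.83 (233 and 412), with 3 measured probe sets from 0.71 to 1.06. HDAC9, a class II deacetylase, was at 0.80 (3468 and 6035). ING5 and HDAC9 rested on 1 measured probe set each, both of the _s_at kind.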

How the data were processed

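Total RNA of 2 DT40 clones, 1 per genotype, was hybridised to the Affymetrix chicken genome array. The authors deposited 1 linear intensity for each of 38535 probe sets per array, made with the scanner software GCOS per the submitters' processing notes, which state no version. The trimmed means of the deposited intensity columns were equal, so the arrays had been scaled before deposit, and no further scaling was applied. Control probe sets (96) were left out. Gene symbols came from the platform annotation, and probe sets with several symbols (177) were not named. Chromosomes were matched by Entrez identifier to the RefSeq GRCg7b annotation and no coordinates were used. Ratios, floors and medians were computed in Python 3.11.15 with pandas 2.3.3, and loess (span 0.3) with statsmodels 0.14.6; the code was tested on simulated data. No test between genotypes was made, because each has 1 array. The number of arrays limits the precision, and detection calls were not used here.

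The members, classes and lists were chosen with earlier results of these data known. Signals of both arrays were to be given for members at least 1.5-fold apart and for the highest and lowest of each class; the other members were then described by class as well. Other chromatin genes were to be named at 2-fold, which none measured in both arrays reached by its brightest probe set. Promoter and protein sequences foreseen for some members were not used here. The alternatives were 3 scalings, 3 floors, 2 ways of choosing probe sets, leaving out _s_at and _x_at probe sets, and the 1.5-fold bar.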

Additional observations from a re-analysis of the deposited data

How the results depend on the processing

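The genes past 2-fold depended on the floor and on the probe sets used. Counts of 2 higher and 1 lower were the same under median scaling, quantile normalization, loess and the mean of all measured probe sets. With the floor at percentile 60 or at the highest reporter signal, 1 gene was higher (DNMT3A), KDM5B no longer being measured, and with the floor at percentile 20, 4 were (DNMT3A, KAT2B, KDM2A and KDM5B). With the second brightest probe set, which 34 genes had, 2 were higher (DNMT3A and NSD1, without KDM5B) and 2 lower (EHMT1 and SMARCC1). Without _s_at and _x_at probe sets, 1 was higher (DNMT3A) and 0 lower, since no other probe set of EHMT1 was measured. At 1.5-fold, 2 were lower. DNMT3A was past 2-fold under all 9 alternatives other than that bar, of which the 3 floors could not change its ratio.

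The median of all members was -0.042 with the floor at percentile 60 and -0.0466 with the mean of all measured probe sets. The methyltransferase median was -0.33 with the floor at percentile 60 or at the highest reporter signal, both over 6 genes, and -0.31 with the second brightest probe set. With the second brightest probe set, the DNA methylation enzymes, DNMT3A among 4 genes left, had a median of -0.37. The other class medians moved by less than the SD per probe set divided by the square root of the number of genes. Of 107 log2 ratios of 13 named genes under the alternatives, 101 stayed within the SD per probe set of 0.36. The other 6 were those of KDM5B (0.09 in both cases), NSD1 (0.25 and 1.31) and DOT1L (-0.19 and -0.34) with other probe sets. A change of floor cannot alter the ratio of a gene that stays measured, and median scaling shifts all ratios alike. Many of the 101 values were therefore fixed in advance and do not gauge the error of a ratio. No paired analysis was possible because each genotype has 1 array. Signals under 131.5 cannot be told from the level of the reporter probe sets.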
